A study of Mus musculus with 24 samples.

Results

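The mucus that covers the gut wall is made by goblet cells, and 7 genes of these cells were followed across wild-type and Cdx2-mutant mouse gut: the regulators Atoh1, Spdef and Creb3l1, the secretory-pathway protein Agr2, and the mucus products Fcgbp, Zg16 and Clca1. The genes were taken by matching the Ensembl identifiers in the count files to mouse symbols, which found all 7 among the 39179 genes listed. The rule reads symbols and no levels, but the 7 genes were picked with earlier results of these data known. All 7 passed the filter on low counts and were tested in every comparison.

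Goblet cells belong to the secretory lineage of the intestinal epithelium. In the mouse, a progenitor that escapes Notch signalling switches on Atoh1, a basic helix-loop-helix factor needed for all secretory cells of the intestine. Spdef, an ETS factor that acts after Atoh1, drives goblet cell maturation, and it is also found in mucous cells of the stomach and airways. Creb3l1 is a transcription factor held in the endoplasmic reticulum membrane and released by cleavage, and it raises genes of the secretory pathway. Agr2 is a protein disulfide isomerase of the endoplasmic reticulum, and mice need it to make the mucin Muc2. Fcgbp, Zg16 and Clca1 leave the cell with the mucin: Fcgbp is a large protein of the mucus gel, Zg16 a lectin-like protein that binds Gram-positive bacteria, and Clca1 a metalloprotease that cuts Muc2. Cdx2 is the homeobox factor that holds gut epithelium in its intestinal identity.

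RNA was sequenced from 24 libraries in 8 groups of 3. Cdx2-/- cecum came as 2 sets of 3 libraries from mice with floxed Cdx2 and AhCreERT, a Cre driven by the CYP1A1 (Ah) promoter, that had been given tamoxifen and β-naphthoflavone. Cdx2-/-;Apc+/- cecum and Cdx2-/-;Apc+/- ileum, called compound-mutant cecum and ileum here, came from mice with the same alleles and treatment plus the mutant Apc allele ApcD14/+. Apc+/- ileum carried ApcD14/+ without treatment, although the genotype entry of replicates 1 and 3 also lists the floxed Cdx2 and Cre alleles; the sample titles were followed. Cdx2+/- cecum, WT stomach and WT cecum were untreated. Treatment went with deletion in every comparison of a deleted with an undeleted group, so the effects of the agents and of losing Cdx2 cannot be told apart. The labels used here give neither age nor the animal behind each replicate. The p-values therefore rest on the spread between these libraries alone, and that spread may be technical.

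Reads assigned to genes numbered 36567685 to 87975179 per library. Levels are given as read counts scaled to a common library size (CPM) after TMM scaling of library sizes. A gene was called changed where its Benjamini-Hochberg adjusted p over 20502 tested genes was under 0.05 in edgeR's quasi-likelihood test. Replicates 2 and 3 of Cdx2-/- cecum set 1 stood nearer to each other than any other pair (chi-square per degree of freedom 7.03, against 53.0 or more). Set 1 also differed in sex-linked genes, with Xist at 666 to 816 CPM, against at most 2.19 CPM in the other 21 libraries, and the Y-linked Ddx3y at no more than 0.25 CPM, against 42.3 CPM or more. Sex therefore goes with set, and for set 1 also with genotype, and the 2 cannot be told apart there. Values from set 2 alone are free of that difference and are given where they change a call. WT cecum replicate 3 had the lowest pan-epithelial level of its group, at 623 CPM (geometric mean of 10 genes) against 959 and 917 CPM. The bulk tissue also held muscle and other cells. In bulk tissue, fewer cells of a type and less RNA per cell cannot be told apart.

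Promoters are shown for Spdef and Agr2, which rose in Cdx2-mutant cecum, and Atoh1, which fell in Cdx2-/- cecum. These are the 3 genes called in Cdx2-/- against WT cecum that the RefSeq table (GRCm38.p6) held. It also held Fcgbp, not called in that comparison and not printed. Each runs 5′ to 3′ on the gene's strand, from 250 bases before the start site to 50 bases after it. Capitals mark TTTATG or its reverse complement, a core of the site bound by CDX proteins, and TGACGT, of the kind bound by CREB3L1. The search for these 2 motifs, CAGCTG (an E-box) and CCGGAT (of the kind bound by SPDEF) covered both strands, and matches did not overlap.
Spdef, chr17:27728902-27729201, minus strand: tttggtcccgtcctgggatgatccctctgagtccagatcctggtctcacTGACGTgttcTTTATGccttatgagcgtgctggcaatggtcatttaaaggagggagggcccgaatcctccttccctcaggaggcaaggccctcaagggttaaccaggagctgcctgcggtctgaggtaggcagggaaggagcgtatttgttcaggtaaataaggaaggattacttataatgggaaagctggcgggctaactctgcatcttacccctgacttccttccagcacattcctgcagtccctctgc
Agr2, chr12:35992675-35992974, plus strand: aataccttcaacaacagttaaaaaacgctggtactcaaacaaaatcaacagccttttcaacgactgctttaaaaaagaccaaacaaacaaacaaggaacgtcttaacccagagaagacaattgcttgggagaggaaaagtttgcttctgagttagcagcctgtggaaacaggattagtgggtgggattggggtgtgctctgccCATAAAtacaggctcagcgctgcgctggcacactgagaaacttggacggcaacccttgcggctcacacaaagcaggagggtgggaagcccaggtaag
Atoh1, chr6:64728875-64729174, plus strand: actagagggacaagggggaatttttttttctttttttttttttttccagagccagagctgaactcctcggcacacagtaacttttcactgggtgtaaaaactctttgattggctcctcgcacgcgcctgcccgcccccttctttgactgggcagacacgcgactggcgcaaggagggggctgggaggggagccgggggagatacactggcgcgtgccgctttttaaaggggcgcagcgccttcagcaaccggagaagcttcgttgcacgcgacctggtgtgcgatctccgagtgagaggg

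Spdef held TGACGT at position -201 and TTTATG at position -191 (first base, counted from the start site). Agr2 held TTTATG on the reverse strand, where the printed CATAAA begins at position -47. Atoh1 held none of the 4 motifs. The promoter of Fcgbp, at chr7:28070986-28071285 on the plus strand, held CAGCTG at position -208. Such matches are common: TTTATG occurred in 11.9% of 32851 promoters in the table, CAGCTG in 16.3%, TGACGT in 7.51% and CCGGAT in 6.04%. They are letters in a window, not sites at which binding was measured. Creb3l1, Zg16 and Clca1 were not matched in that table.

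In GRCm38, the genes lie on 6 chromosomes. Atoh1 (ENSMUSG00000073043) is at chr6:64729125-64731245 and has 1 exon. Spdef (ENSMUSG00000024215) is at chr17:27714352-27728955 on the minus strand, Creb3l1 (ENSMUSG00000027230) at chr2:91982328-92024502 on the minus strand, and Agr2 (ENSMUSG00000020581) at chr12:35992907-36004087 on the plus strand. Fcgbp (ENSMUSG00000047730) and Zg16 (ENSMUSG00000049350) share chromosome 7, at chr7:28071236-28120862 on the plus strand and chr7:127050156-127087328 on the minus strand. Clca1 (ENSMUSG00000028255) is at chr3:145003817-145032776 on the minus strand. Zg16 was the 1 gene of these with genes on the other strand in its span, Gm22747 and Gm44939, whose exons overlapped 0 bases of its own.

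The targeted gene was checked first. Cdx2 had 287, 168 and 165 CPM in Cdx2-/- cecum set 1 and 148, 130 and 349 CPM in set 2, against 623, 663 and 408 CPM in WT cecum. Compound-mutant cecum had 151, 122 and 137 CPM. Cdx2 was thus lower in every Cdx2-/- and compound-mutant cecum library than in any WT cecum library, with log2 fold changes of -1.44 ± 0.39 (SE, adjusted p = 0.00427) and -2.05 (adjusted p = 0.00167). Cdx2+/- cecum had 118, 116 and 116 CPM, below every Cdx2-/- cecum library. In the ileum Cdx2 went against the label: it had 78.9, 178 and 36.9 CPM in the libraries labelled Cdx2-/-;Apc+/-, against 90.1, 63.3 and 112 CPM in Apc+/- ileum. The part of Cdx2 that was removed is not given in the sources used here, so reads can also come from exons outside it.

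The first comparison asked how goblet cell genes stood in Cdx2-/- cecum relative to WT cecum. The 7 genes did not move together, nor did the 3 regulators: Spdef, Creb3l1 and Agr2 rose 7.59-fold, 4.67-fold and 5.35-fold, while Atoh1 and Clca1 fell by 2.05 and 2.99 on the log2 scale. Fcgbp and Zg16 had lower means but were not called. Thus 5 of 7 were called, where 53.1% of all genes tested were called, so the count alone does not set the 7 genes apart. Over all genes, 26.9% were called higher and 26.2% lower, and for 39.4% the libraries of these groups did not overlap.

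Atoh1, at the head of the secretory lineage, ranged over the 6 Cdx2-/- cecum libraries from 1.93 CPM through a median of 4.75 to 9.54 CPM, against 13.2, 13.0 and 30.4 CPM in WT cecum. Every Cdx2-/- library lay below every WT library in CPM. Relative to the pan-epithelial level, set 2 replicate 5 alone (0.01435) lay above WT replicates 1 and 2 (0.01379 and 0.01419). The log2 fold change was -2.05 ± 0.66 (SE, 95% interval -3.43 to -0.67, adjusted p = 0.0135). The call was lost without WT cecum replicate 3, the highest library (-1.52, adjusted p = 0.0904), and with set 2 as the sole Cdx2-/- set (-1.55, adjusted p = 0.119).

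Spdef, the maturation factor, ranged from 107 CPM through a median of 115 to 172 CPM in Cdx2-/- cecum, against 10.8, 8.95 and 30.6 CPM in WT cecum. The lowest Cdx2-/- library stood far above the highest WT library. The log2 fold change was 2.92 ± 0.31 (SE, 95% interval 2.28 to 3.57, adjusted p = 3.14e-07), and it was 3.69 without WT cecum replicate 3 (adjusted p = 5.02e-10).

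Creb3l1 ranged from 137 CPM through a median of 214 to 336 CPM in Cdx2-/- cecum, against 47.0, 37.7 and 59.2 CPM in WT cecum. The groups did not overlap, and replicates 2 and 3 of set 1, the similar pair, were the highest libraries of all 24. Its log2 fold change was 2.23 ± 0.30 (SE, 95% interval 1.60 to 2.85, adjusted p = 4.62e-06).

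Agr2, which folds mucins in the endoplasmic reticulum, ranged from 591 CPM through a median of 781 to 918 CPM in Cdx2-/- cecum, against 89.4, 66.1 and 278 CPM in WT cecum. The groups did not overlap, and WT cecum replicate 3 was again the highest of its group. The log2 fold change of Agr2 was 2.42 ± 0.37 (SE, 95% interval 1.64 to 3.20, adjusted p = 2.24e-05), and it was 3.31 without that library (adjusted p = 7.82e-08).

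Of the 3 mucus products only Clca1 was called. Fcgbp had 731, 706 and 645 CPM in Cdx2-/- cecum set 1 and 1037, 1036 and 822 CPM in set 2, against 1681, 1260 and 3699 CPM in WT cecum. Every Cdx2-/- library lay below every WT library in CPM, yet the log2 fold change of -1.44 ± 0.75 (SE, 95% interval -3.00 to 0.13, adjusted p = 0.114) was not called. When divided by the pan-epithelial level, set 2 replicates 4 and 5 alone (2.131 and 2.507) lay above WT replicates 1 and 2 (1.754 and 1.375). With the spread taken from the groups compared alone, it was called (-1.41, adjusted p = 0.00523).

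Zg16 had 190, 195 and 191 CPM in Cdx2-/- cecum set 1 and 139, 102 and 1029 CPM in set 2, against 1129, 690 and 1138 CPM in WT cecum. Set 2 replicate 6 alone reached the WT range, and that library was also the highest Cdx2-/- library for Muc2 (2590 CPM), for the goblet cell peptide Tff3 (700 CPM) and for Cdx2 (349 CPM). Zg16 was not called (log2 fold change -1.79 ± 0.92 SE, 95% interval -3.72 to 0.14, adjusted p = 0.111). It was called without that library (-2.69, adjusted p = 0.0206) and with the groups compared alone (-1.75, adjusted p = 0.0419). Whether the Cdx2 left in that library has a part in this was not tested.

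Clca1 had 82.9, 87.3 and 90.1 CPM in Cdx2-/- cecum set 1 and 597, 182 and 53.9 CPM in set 2, against 1401, 699 and 1598 CPM in WT cecum. The groups did not overlap in CPM, though set 2 replicate 4 came close to the lowest WT library. That library alone (1.226) passed WT replicate 2 (0.762) relative to the pan-epithelial level. The log2 fold change of Clca1 was -2.99 ± 0.74 (SE, 95% interval -4.53 to -1.45, adjusted p = 0.00211), and -3.60 without set 2 replicate 4 (adjusted p = 0.000732). With set 1 alone it was -3.83 (adjusted p = 0.00336), and with set 2 alone it was no longer called (-2.15, adjusted p = 0.0573).

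The main cargo of goblet cells was not called. Muc2 averaged close to its WT level, with 887, 407 and 391 CPM in Cdx2-/- cecum set 1 and 510, 1083 and 2590 CPM in set 2, against 895, 468 and 1446 CPM in WT cecum (log2 fold change -0.08 ± 0.69 SE, adjusted p = 0.932). Tff3 had 368, 176 and 172 CPM in set 1 and 117, 85.1 and 700 CPM in set 2, against 558, 367 and 513 CPM in WT cecum (log2 fold change -0.84 ± 0.63 SE, adjusted p = 0.272).

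**Figure D1:**
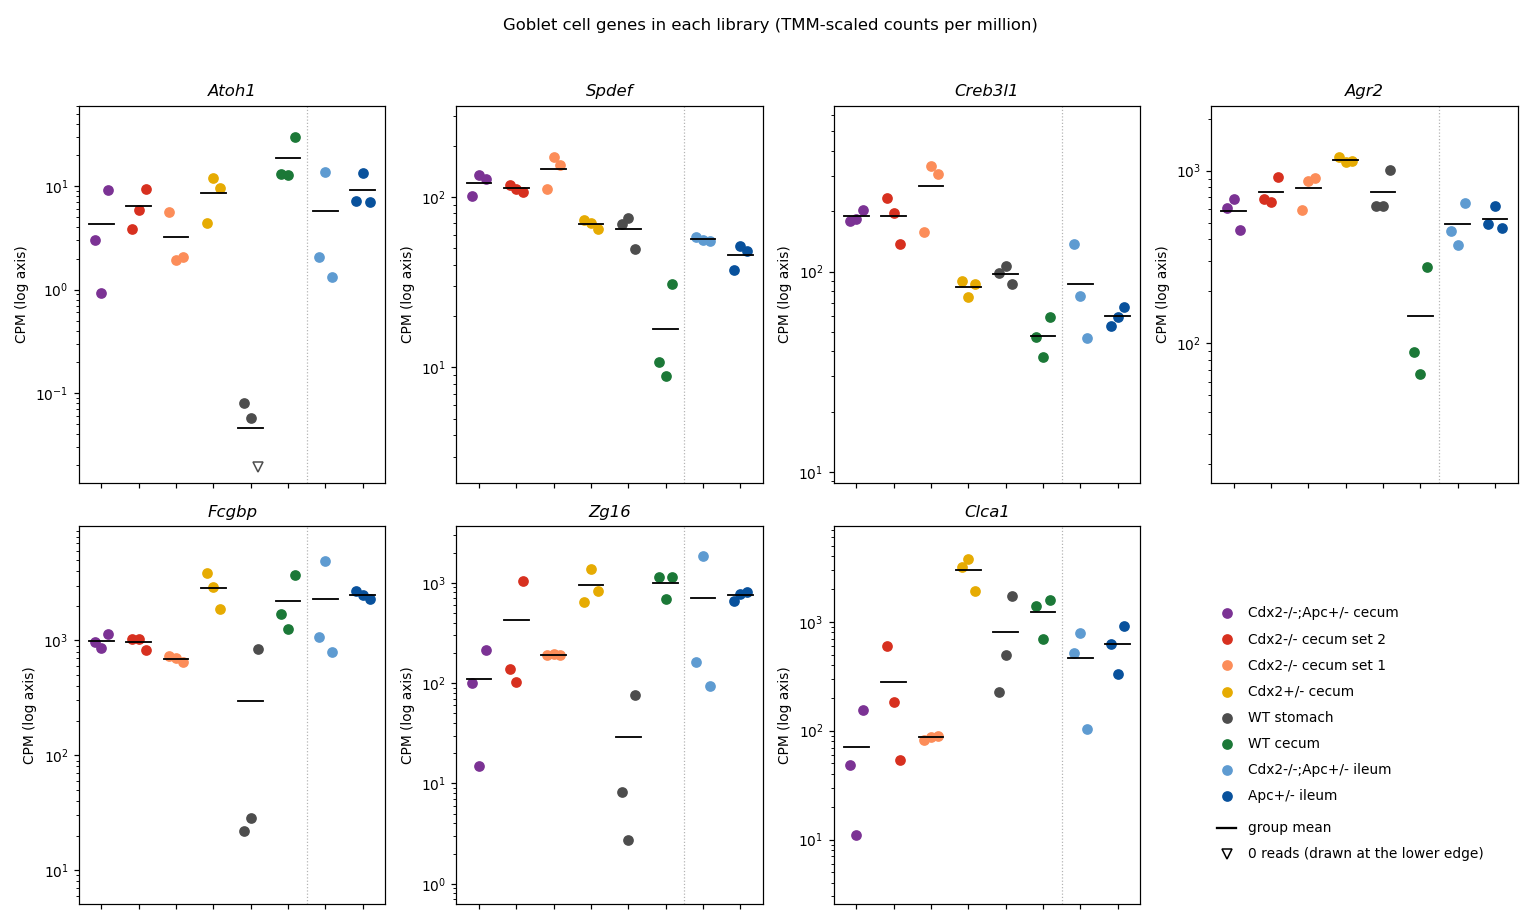
Level of each of the 7 genes in each library, in TMM-scaled CPM on a log axis, with 8 groups along the horizontal axis and a bar at each group mean. Spdef, Creb3l1 and Agr2 are lowest in WT cecum and high in Cdx2-mutant cecum. Zg16 and Clca1 scatter widely in Cdx2-/- cecum set 2. The open triangle marks the WT stomach library with 0 Atoh1 reads.

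Compound-mutant cecum was set against the same WT cecum libraries, so the comparisons are not independent. Here 6 of 7 genes were called where 52.8% of all genes were, 3 of them higher and 3 lower. Spdef had 101, 135 and 128 CPM in compound-mutant cecum, against the 8.95 to 30.6 CPM of WT cecum (log2 fold change 2.85 ± 0.33 SE, adjusted p = 1.32e-06). Creb3l1 had 179, 183 and 203 CPM in compound-mutant cecum and 37.7 to 59.2 CPM in WT cecum (1.97 ± 0.32 SE, adjusted p = 4.51e-05). Agr2 had 604, 685 and 453 CPM in compound-mutant cecum and 66.1 to 278 CPM in WT cecum (2.01 ± 0.39 SE, adjusted p = 0.000308). All 3 genes were higher in every compound-mutant library than in any WT library. Over all genes tested, the libraries of these groups did not overlap for 55.5%. Without WT cecum replicate 3, Spdef and Agr2 stood at 3.62 and 2.90.

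Of the genes that fell in compound-mutant cecum, Clca1 had 47.9, 11.01 and 155 CPM, against 699 to 1598 CPM in WT cecum (log2 fold change -4.12 ± 1.00 SE, adjusted p = 0.00196). Zg16 had 99.7, 15.0 and 212 CPM in compound-mutant cecum, against 690 to 1138 CPM in WT cecum (-3.18 ± 1.21 SE, adjusted p = 0.0333). Atoh1 had 3.02, 0.925 and 9.15 CPM in compound-mutant cecum, against 13.0 to 30.4 CPM in WT cecum (-2.11 ± 0.83 SE, adjusted p = 0.0386). No compound-mutant library reached the WT range in CPM for these genes, while 55.5% of all genes tested also had groups that did not overlap. Relative to the pan-epithelial level, Atoh1 in replicate 3 (0.02098) was inside the 0.01379 to 0.04874 of WT cecum. Replicate 2 was the lowest for all 3. Fcgbp had 972, 854 and 1137 CPM in compound-mutant cecum, below all WT libraries in CPM but not called (-1.16 ± 0.91 SE, adjusted p = 0.294).

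The falls of Clca1, Zg16 and Atoh1 were not equally firm. Without compound-mutant replicate 3, Clca1 stood at -5.38 and Zg16 at -4.10 (adjusted p = 0.03). The Zg16 call was lost without WT cecum replicate 1 (adjusted p = 0.0639) or 3 (0.0531), and without compound-mutant replicate 1 (0.0839) or 2 (0.104). It was also lost under pan-epithelial scaling (-2.37, adjusted p = 0.0739). That scaling sets library size by the 10 pan-epithelial genes, which are not constant between the groups. The Atoh1 call was lost without WT cecum replicate 3 (adjusted p = 0.135), without compound-mutant replicate 1 (0.109) or 2 (0.13), under pan-epithelial scaling (-1.41, adjusted p = 0.156) and with the groups compared alone (adjusted p = 0.0606); without compound-mutant replicate 3 it was -3.25 (adjusted p = 0.00923). Pan-epithelial scaling moved Creb3l1 to 2.61 and Clca1 to -3.33.

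Markers of other cell types moved with this comparison too, in which 26.6% of all genes tested rose and 26.1% fell. All 10 enteroendocrine genes fell, with a summed level of 5.67 to 55.9 CPM in compound-mutant cecum, against 157 to 266 CPM in WT cecum. Of 12 absorptive genes 10 fell, with a sum of 1547 to 2694 CPM in compound-mutant cecum, against 23910 to 45990 CPM in WT cecum. Of 15 tested gastric and airway mucous genes 10 rose (8338 to 12920 CPM in compound-mutant cecum, against 90.6 to 805 CPM in WT cecum), as did 6 of 9 Paneth and 7 of 10 squamous genes, and none of these fell. In the pan-epithelial list 1 of 10 rose and 6 fell. Their part in the changes of the 7 genes was not tested.

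What the mutant Apc allele added was tested by setting compound-mutant against Cdx2-/- cecum. None of the 7 genes was called, where 8.43% of all genes were. For each gene the groups overlapped, while they did not overlap for 8.63% of all genes tested. The intervals were narrow for Spdef (log2 fold change -0.08, 95% interval -0.63 to 0.48), Creb3l1 (-0.25, -0.81 to 0.31) and Agr2 (-0.41, -1.11 to 0.28). They were wide for Atoh1 (-0.06, -1.51 to 1.39), Fcgbp (0.27, -1.33 to 1.88), Clca1 (-1.13, -2.80 to 0.55) and Zg16 (-1.39, -3.53 to 0.76), and include differences of several-fold. The 2 sets of Cdx2-/- cecum were also compared with each other: none of the 7 genes was called in set 2 against set 1, where 10.5% of all genes were. The largest difference was that of Clca1, at 1.68 (95% interval -0.21 to 3.56, adjusted p = 0.245).

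Cdx2+/- cecum, untreated, was compared with the same WT cecum libraries. The label gives 1 mutant Cdx2 allele, but Cdx2 reads were below those of every Cdx2-/- library (116 to 118 CPM in Cdx2+/- cecum, against 130 to 349 CPM in Cdx2-/- cecum), so the label does not rank these groups by Cdx2 level. Spdef and Agr2 rose, and no gene fell. That is 2 of 7 called, near the 34.4% called over all genes. Over all genes 17.1% were called higher and 17.3% lower, and for 48% the libraries of these groups did not overlap. Agr2 had 1192, 1128 and 1137 CPM in Cdx2+/- cecum, against 89.4, 66.1 and 278 CPM in WT cecum, a 7.97-fold rise (log2 fold change 3.00 ± 0.41 SE, adjusted p = 1.92e-05). In CPM these were the 3 highest Agr2 values of all 24 libraries. Spdef had 72.9, 70.3 and 65.1 CPM in Cdx2+/- cecum, against 10.8, 8.95 and 30.6 CPM in WT cecum (2.04 ± 0.32 SE, adjusted p = 7.68e-05). Without WT cecum replicate 3, Agr2 stood at 3.89 and Spdef at 2.81.

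Creb3l1 had 89.3, 74.7 and 86.3 CPM in Cdx2+/- cecum, above the 47.0, 37.7 and 59.2 CPM of WT cecum, and fell just short of a call (log2 fold change 0.80 ± 0.31 SE, adjusted p = 0.0512). It was called with a filter of at least 1 CPM in 3 libraries (adjusted p = 0.0478), with the groups compared alone (0.0184), without WT cecum replicate 3 (0.0379) and in DESeq2 (0.0428). Clca1 had 3192, 3794 and 1903 CPM in Cdx2+/- cecum, all above the 1401, 699 and 1598 CPM of WT cecum, but was not called (1.27 ± 0.89 SE, 95% interval -0.60 to 3.13, adjusted p = 0.291) except with the groups compared alone (1.29, adjusted p = 0.0446). Zg16 (637, 1382 and 824 CPM in Cdx2+/- cecum; log2 fold change -0.06, 95% interval -2.37 to 2.26), Fcgbp (3868, 2922 and 1863 CPM; 0.38, -1.49 to 2.25) and Atoh1 (4.39, 12.1 and 9.56 CPM; -1.12 ± 0.80 SE, adjusted p = 0.299) were not called. Markers of other cell types moved with this comparison: the summed level of 10 smooth muscle genes was 162 to 639 CPM in Cdx2+/- cecum, against 1373 to 4443 CPM in WT cecum, and all 10 fell. All 10 squamous genes rose, with a summed level of 61.4 to 970 CPM in Cdx2+/- cecum, against 1.46 to 5.59 CPM in WT cecum. Of 15 tested gastric and airway mucous genes 11 rose and none fell, with a summed level of 34270 to 35430 CPM in Cdx2+/- cecum, against 90.6 to 805 CPM in WT cecum. The part of these cells in the changes of Agr2 and Spdef was not tested.

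Set directly against each other, Cdx2-/- and Cdx2+/- cecum differed in 3 of 7 genes, where 40.3% of all genes were called. Creb3l1 was higher in Cdx2-/- cecum (137 to 336 CPM, against 74.7 to 89.3 CPM in Cdx2+/- cecum; log2 fold change 1.43 ± 0.28 SE, adjusted p = 0.0009). Spdef was also higher in Cdx2-/- cecum (107 to 172 CPM, against 65.1 to 72.9 CPM in Cdx2+/- cecum; 0.88 ± 0.28 SE, adjusted p = 0.0167). Clca1 was lower in Cdx2-/- cecum (53.9 to 597 CPM, against 1903 to 3794 CPM in Cdx2+/- cecum; -4.26 ± 0.76 SE, adjusted p = 0.000414). The libraries of the groups did not overlap for any of the 3, which was so for 37.6% of all genes tested. In CPM, Agr2 was lower in every Cdx2-/- library (-0.58 ± 0.32 SE, adjusted p = 0.157), as was Fcgbp (-1.82 ± 0.74 SE, adjusted p = 0.0581), but neither was called. Over alternatives other than leaving out 1 library, the Agr2 value ran from -0.62 to 0.23. Relative to the pan-epithelial level, Agr2 was 1.15 to 1.19 in Cdx2+/- cecum, inside the 0.868 to 1.61 of Cdx2-/- cecum. Fcgbp in set 2 replicates 4 and 5 (2.131 and 2.507) then lay above the lowest Cdx2+/- library (1.897).

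The Spdef difference between Cdx2-/- and Cdx2+/- cecum was lost without Cdx2+/- replicate 2 (adjusted p = 0.0532) or 3 (0.0616) and with set 2 alone (0.69, adjusted p = 0.0749), and it was 1.71 under pan-epithelial scaling. That scaling put Creb3l1 at 2.29 and Clca1 at -3.38; Clca1 was -5.09 with set 1 alone, -3.42 with set 2 alone and -4.87 without set 2 replicate 4. Fcgbp was called in DESeq2 (adjusted p = 0.0325) and with the groups compared alone (0.000335), as were Agr2 (0.0198) and Zg16 (-1.73, 0.0495) with those groups alone. Zg16 was also called without set 2 replicate 6 (-2.64, adjusted p = 0.03).

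Markers of other cell types differed between these groups as well. Over all genes tested, 19.7% were called higher in Cdx2-/- cecum and 20.6% lower. All 10 smooth muscle genes were higher in Cdx2-/- cecum, with a summed level of 1637 to 1787 CPM in set 1 and 1592 to 3502 CPM in set 2, against 162 to 639 CPM in Cdx2+/- cecum. Of 10 pan-epithelial genes 8 were lower in Cdx2-/- cecum and none higher (geometric mean 563 to 681 CPM in set 1 and 413 to 735 CPM in set 2, against 978 to 1004 CPM in Cdx2+/- cecum). Lower in Cdx2-/- cecum were also 10 of 12 absorptive, 8 of 10 squamous and 7 of 10 enteroendocrine genes, while 7 of 9 Paneth genes were higher. Of the gastric and airway mucous genes 2 of 15 were higher and 5 lower. The part of these cells in the differences of Creb3l1, Spdef and Clca1 was not tested.

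**Figure D2:**
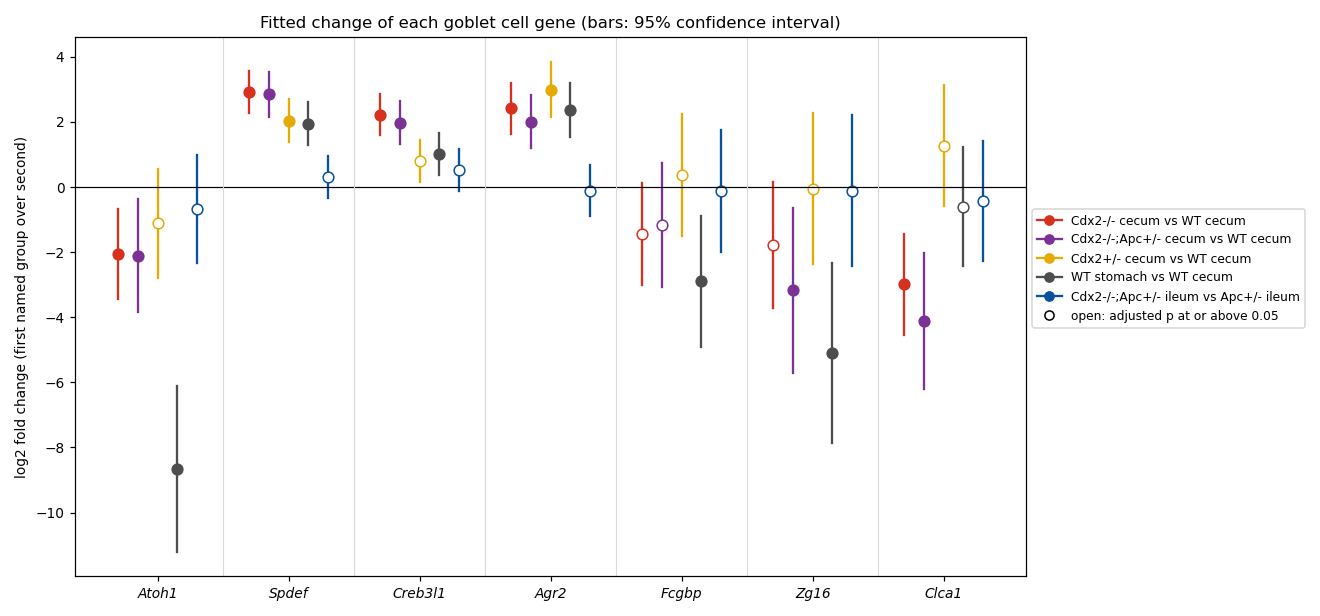
Log2 fold change of each gene with its 95% interval in 5 comparisons, with open symbols where the change was not called. Spdef and Agr2 lie above 0 in the 4 comparisons with WT cecum, which share their WT libraries, while Clca1 lies below 0 in Cdx2-/- and compound-mutant cecum. In the ileum all 7 intervals include 0.

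WT stomach was set against WT cecum to show how far each gene marks intestine. Atoh1 was at 0.0789, 0.0568 and 0 CPM in WT stomach, which are 4, 3 and 0 reads, against 13.2, 13.0 and 30.4 CPM in WT cecum (log2 fold change -8.66 ± 1.22 SE, adjusted p = 1.19e-05, a fitted value that rests on very few stomach reads). Spdef, however, was higher in WT stomach, at 69.7, 75.7 and 49.4 CPM, against 10.8, 8.95 and 30.6 CPM in WT cecum (1.95 ± 0.32 SE, adjusted p = 6.06e-05). So was Agr2, at 624, 621 and 1015 CPM in WT stomach, against 89.4, 66.1 and 278 CPM in WT cecum (2.38 ± 0.40 SE, adjusted p = 7.6e-05). Creb3l1 had 97.8, 107 and 86.9 CPM in WT stomach and 47.0, 37.7 and 59.2 CPM in WT cecum (1.02 ± 0.31 SE, adjusted p = 0.0115). Thus all 3 genes that rose in Cdx2-/- cecum were also higher in wild-type stomach, in libraries that do not overlap with WT cecum. Such separation was found for 51.4% of all genes tested. Both comparisons use the same WT cecum libraries, the lowest group for all 3 genes, so the shared direction is not independent evidence.

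Among the products, Zg16 had 8.12, 2.71 and 75.4 CPM in WT stomach, against 690 to 1138 CPM in WT cecum (log2 fold change -5.10 ± 1.32 SE, adjusted p = 0.00395). Fcgbp had 21.8, 28.7 and 841 CPM in WT stomach, against 1260 to 3699 CPM in WT cecum (-2.90 ± 0.96 SE, adjusted p = 0.0194). Clca1 was not called, with 228, 492 and 1718 CPM in WT stomach and 699 to 1598 CPM in WT cecum (-0.60 ± 0.88 SE, 95% interval -2.44 to 1.24). In all, 6 of 7 genes were called where 43.7% of all genes were. WT stomach replicate 3 was the highest of its group for Fcgbp, Zg16, Clca1 and Agr2, while the intestinal goblet cargo genes Muc2 (1.88 CPM) and Tff3 (1.95 CPM) were near 0 in it.

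Without WT stomach replicate 3, Fcgbp stood at -6.45 (adjusted p = 3.12e-06) and Zg16 at -7.51 (adjusted p = 0.00092). The Fcgbp call was lost without WT stomach replicate 1 (adjusted p = 0.0501) or 2 (0.0601), without WT cecum replicate 3 (0.0655), with the groups compared alone (0.144) and under pan-epithelial scaling (-1.65, adjusted p = 0.106). The Creb3l1 call was lost without WT cecum replicate 2 (0.87, adjusted p = 0.0617). Without WT cecum replicate 3, Spdef stood at 2.71 and Agr2 at 3.28. Atoh1 was -9.29 without WT stomach replicate 1 and -8.07 without replicate 3. Pan-epithelial scaling, which puts the median log2 fold change of all genes at 1.40 in this comparison (0.04 under TMM), gave -7.47 for Atoh1, 3.15 for Spdef, 2.34 for Creb3l1, 3.57 for Agr2 and -3.76 for Zg16. Of the genes that set this scaling, Cldn7 (-7.56), Epcam (-3.3), Spint1 (-2.22), Esrp1 (-1.29) and Ap1m2 (-0.54) were themselves called lower in WT stomach. Krt18 (1.14) was called higher, and the others were not called. These scaled values therefore rest on genes that differ between the tissues.

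For the ileum, libraries with the label Cdx2-/-;Apc+/- (labelled mutant ileum) were compared with Apc+/- ileum, and both groups carried the mutant Apc allele. None of the 7 genes was called, where 0.444% of all genes were (91 genes). The libraries of these groups did not overlap for 11.2% of all genes tested. Spdef had 58.3, 56.0 and 55.0 CPM in the labelled mutant ileum, just above the 37.5, 51.3 and 48.0 CPM of Apc+/- ileum in every library (log2 fold change 0.31, 95% interval -0.33 to 0.95, adjusted p = 0.855). Agr2 had 446, 373 and 645 CPM in the labelled mutant ileum and 490, 622 and 465 CPM in Apc+/- ileum (-0.11, -0.90 to 0.68). Creb3l1 had 137, 75.5 and 46.5 CPM in the labelled mutant ileum and 53.6, 59.2 and 66.6 CPM in Apc+/- ileum (0.53, -0.11 to 1.17). The ileum intervals for Spdef and Agr2 lie below the 2.85 and 2.01 seen in compound-mutant against WT cecum.

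For Zg16, Fcgbp and Atoh1, replicate 2 of the labelled mutant ileum stood apart from the other 2 libraries. Zg16 had 161, 1840 and 93.3 CPM in the labelled mutant ileum and 663, 781 and 815 CPM in Apc+/- ileum (log2 fold change -0.11, 95% interval -2.43 to 2.21). Fcgbp had 1070, 4955 and 787 CPM in the labelled mutant ileum and 2678, 2465 and 2287 CPM in Apc+/- ileum (-0.13, -2.0 to 1.74). Atoh1 had 2.08, 13.9 and 1.32 CPM in the labelled mutant ileum and 7.16, 13.5 and 7.08 CPM in Apc+/- ileum (-0.67, -2.34 to 1.00). For these 3 genes replicates 1 and 3 lay below all Apc+/- libraries, and replicate 2 above them.

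Replicate 2 of the labelled mutant ileum was also the highest of its group for Muc2 (2040 CPM, against 331 and 122 CPM in replicates 1 and 3), for Tff3 (686 CPM, against 103 and 62.7 CPM) and for Cdx2 itself (178 CPM, against 78.9 and 36.9 CPM). Clca1 had 513, 788 and 103 CPM in the labelled mutant ileum and 625, 335 and 921 CPM in Apc+/- ileum (log2 fold change -0.42, 95% interval -2.26 to 1.42), with replicate 3 below the Apc+/- range and the others inside it. Without replicate 2 the values were -2.44 for Atoh1 (adjusted p = 0.124), -2.56 for Zg16 (0.295), -1.41 for Fcgbp (0.534) and -1.02 for Clca1 (0.697), and none was called. Whether the Cdx2 level of a library has a part in these values was not tested.

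Whether the mutant effect differed between tissues was tested as the difference of 2 contrasts: compound-mutant against WT cecum, minus labelled mutant against Apc+/- ileum. The cecum reference lacks the mutant Apc allele and the ileum reference carries it, and the WT cecum libraries are those of the other cecum comparisons. For 4 of 7 genes the effects differed, where 34.7% of all genes did. The effect in cecum was higher for Spdef (difference 2.54 ± 0.44 SE on the log2 scale, adjusted p = 0.00027), Agr2 (2.11 ± 0.54 SE, adjusted p = 0.00555) and Creb3l1 (1.44 ± 0.44 SE, adjusted p = 0.0152). It was lower for Clca1 (-3.69 ± 1.28 SE, adjusted p = 0.0313). No difference was called for Zg16 (-3.07, adjusted p = 0.145), Atoh1 (-1.44, adjusted p = 0.338) or Fcgbp (-1.04, adjusted p = 0.551).

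Without WT cecum replicate 3 the difference between tissues was 3.31 for Spdef and 3.01 for Agr2. The Clca1 difference was lost without WT cecum replicate 1 (adjusted p = 0.0574), compound-mutant cecum replicate 1 (0.0678) or 2 (0.0614), labelled mutant ileum replicate 2 (0.0848), or Apc+/- ileum replicate 1 (0.0597) or 2 (0.0717). It was also lost under pan-epithelial scaling (-2.98, adjusted p = 0.1), and it was -4.96 without compound-mutant cecum replicate 3.

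At the same labelled genotype and treatment, compound-mutant cecum and ileum differed in 2 of 7 genes, where 16.2% of all genes were called. Spdef was higher in the cecum, at 101, 135 and 128 CPM, against 58.3, 56.0 and 55.0 CPM in the ileum (log2 fold change 1.10 ± 0.31 SE, adjusted p = 0.0207). Creb3l1 was higher too, at 179, 183 and 203 CPM in cecum, against 137, 75.5 and 46.5 CPM in ileum (1.12 ± 0.31 SE, adjusted p = 0.0188). For both genes the groups did not overlap, which was so for 30.1% of all genes tested. Neither call held under pan-epithelial scaling (Spdef 0.99, adjusted p = 0.193; Creb3l1 1.05, adjusted p = 0.135) or with the groups compared alone (0.0659 and 0.14). Both were also lost without compound-mutant cecum replicate 2 (0.0747 for Spdef, 0.0505 for Creb3l1), ileum replicate 2 (0.0559 and 0.0678) or ileum replicate 3 (0.06 and 0.0803).

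Clca1 was lower in compound-mutant cecum, at 47.9, 11.01 and 155 CPM, against 513, 788 and 103 CPM in ileum, short of a call (-2.72 ± 0.94 SE, adjusted p = 0.0536). It was called in DESeq2 (adjusted p = 0.00819), with a filter of at least 1 CPM in 3 libraries (0.0472), with the replicate number as a block (-3.18, 0.0309), without cecum replicate 3 (-3.99, 0.0206) and without ileum replicate 3 (-3.19, 0.0353). Zg16 (-2.68, adjusted p = 0.129), Fcgbp (-1.20, 0.401), Atoh1 (-0.41, 0.782) and Agr2 (0.25, 0.705) were not called.

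The order of the 8 groups by their mean log2 level differed from gene to gene. For Spdef the 3 groups of Cdx2-/- and compound-mutant cecum led, from 101 to 172 CPM, and no library of another group reached them. Cdx2+/- cecum, WT stomach and the labelled mutant ileum followed as overlapping neighbours, then Apc+/- ileum, and WT cecum stood alone at the low end. Creb3l1 had the same 3 groups on top, clear of the next group in order, although labelled mutant ileum replicate 1 reached 137 CPM, the level of the lowest set 2 library. The other 5 groups each overlapped their neighbour. For Agr2 in CPM, Cdx2+/- cecum stood alone at the top and WT cecum alone at the bottom, with the 6 groups between them overlapping in turn. Divided by the pan-epithelial level, Cdx2+/- cecum (1.15 to 1.19) lay below WT stomach (1.77 to 3.295) and inside Cdx2-/- cecum (0.868 to 1.61). The genes behind that level also differ between the groups.

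The orders of Atoh1 and the products were less sharp. For Atoh1 each group overlapped its neighbour except WT stomach, which stood below all others. For Zg16 all 8 groups overlapped in turn, with WT cecum first and WT stomach last. Clca1 was highest in Cdx2+/- cecum, above every other library, and the other 7 groups overlapped in turn. For Fcgbp the 1 gap was between Cdx2-/- cecum set 2 and set 1.

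Scatter between replicates also differed from gene to gene. The SD of log2 CPM within groups, pooled over all 8, was 0.39 for Spdef, 0.40 for Creb3l1 and 0.48 for Agr2, near the 0.36 of the median gene. It was 1.07 for Atoh1, 1.21 for Fcgbp, 1.25 for Clca1 and 1.53 for Zg16, which is above 95.2% to 98.8% of all genes tested. Muc2 (1.08) and Tff3 (0.97) scattered as widely. The same group difference therefore passed the test more readily for Spdef, Creb3l1 and Agr2 than for the other 4 genes.

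Levels of different genes can be compared once divided by exon length. In WT cecum the mean CPM per kilobase was 784 for Zg16, 326 for Clca1, 211 for Fcgbp, 112 for Agr2, 18.4 for Creb3l1, 8.90 for Atoh1 and 7.29 for Spdef. In Cdx2-/- cecum, over both sets, it was 599 for Agr2, 245 for Zg16, 87.4 for Creb3l1, 79.0 for Fcgbp, 56.0 for Spdef, 48.2 for Clca1 and 2.28 for Atoh1. The secreted products led in WT cecum, while Agr2 led in Cdx2-/- cecum, and the regulators Creb3l1 and Spdef came into the range of the products there.

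As a share of the CPM per kilobase summed over the 7 genes, Agr2 took 56.4, 60.1 and 62.4% in Cdx2-/- cecum set 1 and 51.1, 59.1 and 41.2% in set 2, against 4.53, 5.51 and 11.1% in WT cecum. Zg16 took 18.7, 13.8 and 13.5% in set 1 and 10.6, 9.38 and 47.4% in set 2, against 58.8, 59.1 and 46.5% in WT cecum. In set 2 replicate 6 the Zg16 share was thus inside the WT range while the Agr2 share was not. These shares move together by construction, and the same libraries gave the tests above.

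**Figure D3:**
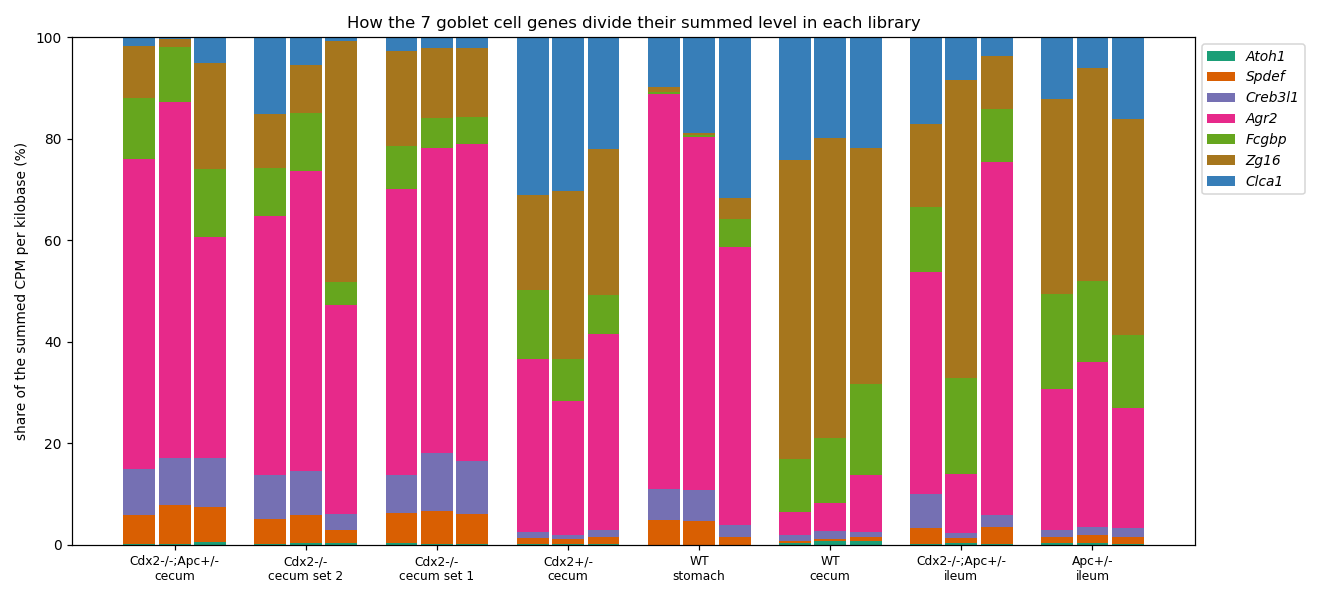
Share of each of the 7 genes in their summed CPM per kilobase, in percent, as 1 stacked bar per library, grouped by the 8 groups. Agr2 fills 41.2% or more of each Cdx2-/- cecum library, against at most 11.1% in WT cecum, where Zg16 holds 46.5% or more.

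A pair of ratios, chosen after the values were seen and given as description, sets genes against each other within each library. Spdef over Atoh1, per kilobase, was 18.3, 81.8 and 67.9 in Cdx2-/- cecum set 1, 28.0, 17.3 and 10.3 in set 2, and 30.9, 134 and 12.8 in compound-mutant cecum. Cdx2+/- cecum had 15.3, 5.34 and 6.26, and WT cecum had 0.754, 0.633 and 0.928. WT cecum was the 1 group with less Spdef than Atoh1 per kilobase, in all 3 libraries. The ratio was 25.8, 3.70 and 38.2 in the labelled mutant ileum, against 4.82, 3.50 and 6.24 in Apc+/- ileum, and 813 and 1226 in the WT stomach libraries that had an Atoh1 read.

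Agr2 over Zg16, per kilobase, was 3.02, 4.36 and 4.62 in Cdx2-/- cecum set 1 and 4.83, 6.31 and 0.868 in set 2, against 0.0770, 0.0932 and 0.238 in WT cecum. Every Cdx2-/- library, set 2 replicate 6 included, had the higher ratio. It was 5.90, 44.4 and 2.08 in compound-mutant cecum, and 1.82, 0.794 and 1.34 in Cdx2+/- cecum. In the ileum the ratio was 2.69, 0.197 and 6.74 in the labelled mutant libraries, on both sides of the 0.721, 0.776 and 0.556 of Apc+/- ileum.

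**Figure D4:**
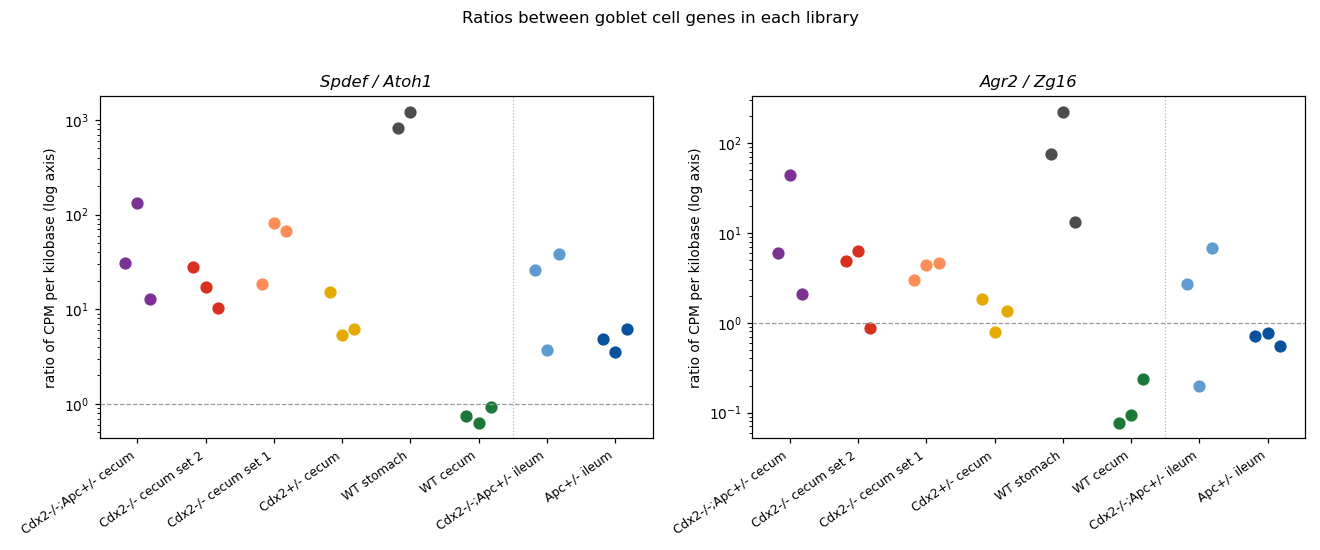
Ratio of Spdef to Atoh1 and of Agr2 to Zg16 in each library, from CPM per kilobase, on log axes, for the 8 groups. WT cecum lies lowest as a group in both panels, below 1 in all libraries, and replicate 2 of the labelled mutant ileum lies far below the other 2 libraries of its group. WT stomach replicate 3 has no Spdef to Atoh1 value, as it had 0 Atoh1 reads.

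Likeness of the 7 genes over the 8 group means of log2 CPM was read from Pearson's r, which was 0.911 for Spdef with Creb3l1, 0.825 for Spdef with Agr2 and lower, at 0.561, for Creb3l1 with Agr2. It was 0.949 for Atoh1 with Fcgbp, 0.93 for Atoh1 with Zg16 and 0.935 for Fcgbp with Zg16. Without WT stomach these 3 values were lower, at 0.697, 0.842 and 0.826. Spdef with Atoh1 gave -0.303, and -0.835 over the 7 groups other than WT stomach, where Atoh1 was near 0. Without WT stomach, Clca1 ran with Zg16 (0.945) and Fcgbp (0.888), against 0.449 and 0.25 with it. These are descriptions of 8 points that share their libraries and scaling.

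Of 11533 other genes with a mean of at least 5 CPM, those nearest to each of the 7 by r over the 8 group means were named. For Atoh1 they were Arg2 (0.989), Tff3 (0.98) and Epcam (0.979), and for Spdef Ttc39a (0.991), Wtip (0.99) and Tchh (0.987). Creb3l1 had Ggcx (0.989), Slc7a4 (0.975) and Sil1 (0.973), and Agr2 had Kif5c (0.987), Stn1 (0.98) and Psmc2 (0.979). Fcgbp had Stard4 (0.991), Slc35f2 (0.99) and Themis3 (0.988), Zg16 had Clec2h (0.988), Mep1b (0.987) and Relb (0.986), and Clca1 had Glod5 (0.963), Dnpep (0.957) and Dgat1 (0.955).

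Genes of the same programmes were read from lists chosen with earlier results of these data known. In Cdx2-/- against WT cecum, 17 of 24 genes of the secretory pathway and unfolded protein response rose and none fell, with a median log2 fold change of 1.17, against 0.04 over all genes. Over all genes tested 26.9% rose and 26.2% fell, the shares against which this and the other list counts of this comparison stand. Tmed3, a cargo receptor of the early secretory pathway, rose by 1.89 ± 0.18 (SE, adjusted p = 6.08e-08). Ern2, the stress sensor IRE1β of mucous epithelia, rose by 3.37 ± 0.34 (SE, adjusted p = 1.66e-07), and the disulfide isomerase Pdia6 by 1.76 ± 0.18 (SE, adjusted p = 2.05e-07). Xbp1, Creb3l4 and Hspa5, named after their values were seen, rose by 1.46, 3.91 and 1.62. Without WT cecum replicate 3, 17 of the 24 genes rose and 1 fell.

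Of the other goblet cell products in Cdx2-/- cecum, 5 of 20 rose, about the share of all genes, and 9 fell, with a median of -1.07. Bcas1 rose by 2.51 ± 0.32 (SE, adjusted p = 2.33e-06). The inflammasome gene Nlrp6 had a log2 fold change of -4.54 ± 0.60 (SE, adjusted p = 4.22e-06), and Best2, a channel of colonic goblet cells, one of -5.88 ± 0.82 (SE, adjusted p = 7.3e-06). Fewer fell under pan-epithelial scaling (5 rose and 6 fell) and without WT cecum replicate 3 (5 rose and 7 fell).

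Of 18 tested genes of the secretory lineage and Notch list, 11 rose and 4 fell, with a median of 0.90. Foxa1, a forkhead factor of endoderm, rose by 1.47 ± 0.15 (SE, adjusted p = 1.8e-07), and Sox9, a factor of the crypt base, by 2.42 ± 0.26 (SE, adjusted p = 3.97e-07). Klf4, a factor of colonic goblet cell differentiation in the mouse, stood at -3.21 ± 0.33 (SE, adjusted p = 1.83e-07). Hes1, the Notch target that holds Atoh1 down, was not called (0.43 ± 0.18 SE, adjusted p = 0.0507; named after its value was seen).

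Mucous genes of stomach and airways rose in the same comparison as Spdef, Creb3l1 and Agr2. In Cdx2-/- against WT cecum, 13 of 15 tested rose and none fell, with a median of 5.10. Vsig1, a junction protein of gastric epithelium, rose by 5.82 ± 0.60 (SE, adjusted p = 2.05e-07), the airway secretoglobin Scgb3a1 by 7.42 ± 1.04 (SE, adjusted p = 8.3e-06) and Bpifb1 by 5.39 ± 0.80 (SE, adjusted p = 1.46e-05). Their summed level was 7615 to 28590 CPM in set 1 and 4482 to 15290 CPM in set 2, against 90.6 to 805 CPM in WT cecum. It was 92990 to 105300 CPM in WT stomach. What part such cells have in the levels of Spdef, Creb3l1 and Agr2 was not tested.

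Markers of other cell types also moved between Cdx2-/- and WT cecum. All 9 tested Paneth genes rose, with a summed level of 232 to 609 CPM in set 1 and 235 to 1548 CPM in set 2, against 18.0 to 34.2 CPM in WT cecum, where 1, 4 and 4 of the 10 listed genes had 0 reads. The Paneth list shares Itln1 with the list of other goblet cell products. All 10 enteroendocrine genes fell. Of 12 absorptive genes 11 fell, with a summed level of 1665 to 4274 CPM in set 1 and 1556 to 2233 CPM in set 2, against 23910 to 45990 CPM in WT cecum. The enteroendocrine sum was 3.70 to 18.9 CPM in set 1 and 10.6 to 26.9 CPM in set 2, against 157 to 266 CPM in WT cecum. Tuft genes rose in 5 of 10 cases, squamous genes in 6 of 10 and leukocyte genes in 7 of 10, with 1 leukocyte gene lower. In the pan-epithelial list 1 of 10 rose and 6 fell, with a median of -0.67, and 1 of 10 smooth muscle genes fell. Atoh1 and Clca1 thus fell in a comparison in which enteroendocrine and absorptive genes fell while Paneth genes, also of the secretory lineage, rose. What those cell types contribute was not tested.

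**Figure D5:**
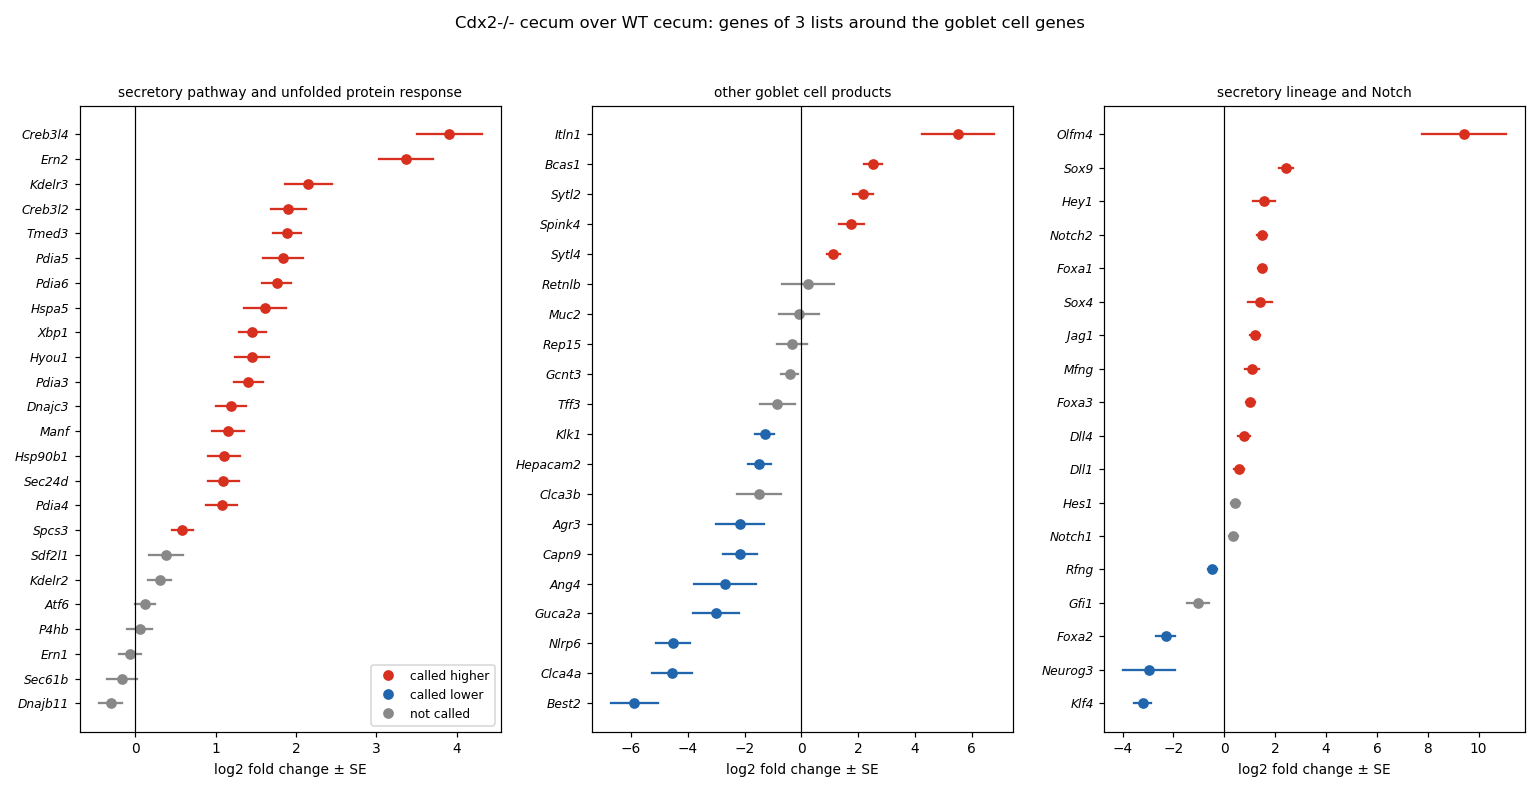
Log2 fold change with its SE for each tested gene of 3 lists in Cdx2-/- against WT cecum, with red for called higher, blue for called lower and grey for not called. Secretory pathway genes lie mostly above 0 (17 of 24 called higher), other goblet cell products on both sides (5 of 20 higher, 9 lower).

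The same lists were read in the other comparisons, where the shares of all genes called higher and lower were 17.1% and 17.3% in Cdx2+/- against WT cecum, 26.6% and 26.1% in compound-mutant against WT cecum, and 22.1% and 21.6% in WT stomach against WT cecum. In Cdx2+/- against WT cecum, 18 of 24 secretory pathway genes rose and none fell (median 1.00), among them Ern2 (2.21), Pdia6 (1.81) and Tmed3 (1.24), but 9 of 24 under pan-epithelial scaling. Of the other goblet cell products 4 of 20 rose and 1 fell there, and Best2 (-1.49) and Nlrp6 (-1.82, adjusted p = 0.0534) were not called. In compound-mutant against WT cecum, 18 of 24 secretory pathway genes rose and 2 fell, and 4 of 20 goblet products rose and 7 fell, with Best2 at -2.65 and Nlrp6 at -4.45. In WT stomach against WT cecum, 15 of 24 secretory pathway genes were higher and 1 lower, and 5 of 20 goblet products were higher and 12 lower, with Best2 at -9.18 and Nlrp6 at -8.72.

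In the ileum comparison no gene of the secretory pathway, goblet product or lineage lists was called. Of 15 tested gastric and airway mucous genes 7 were higher in the labelled mutant ileum, Scgb3a1 (4.52, adjusted p = 0.0258) among them. Over all genes tested, 0.395% were called higher there. Their summed level was 1240 to 12900 CPM in the labelled mutant ileum, against 1020 to 1803 CPM in Apc+/- ileum. Agr2 and Spdef, which rose with these genes in Cdx2-mutant against WT cecum, were not called there. In Cdx2-/- against Cdx2+/- cecum Spdef was higher (0.88), while more of these mucous genes were called lower than higher. A link between them was not tested. In the difference between cecum and ileum, 15 of 24 secretory pathway genes were called higher and 1 lower, Ern2 at 3.19 and Tmed3 at 1.46. Over all genes, 34.7% were called in either direction.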

How the data were processed

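The deposited files, 1 for each library, hold raw counts of reads per gene made by the authors. Total RNA was extracted with Trizol and libraries made with a TruSeq mRNA v2 kit, per the labels' protocols. CASAVA, TopHat2 2.0.11, HTSeq 0.5.3p3 and GRCm38 are named in the submitters' processing notes. Strand setting and counting annotation: not given in the sources used here. Entries that name no gene were left out of library sizes.

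All 24 libraries in 8 groups were fitted together in edgeR 4.0.16 (R 4.3.3, limma 3.58.1) with TMM scaling, filterByExpr and the quasi-likelihood F test, on 16 residual degrees of freedom. The test was also run on simulated counts, whose settings and outcome are not given here. Fold changes are log2, tested minus control, with SE. Alternatives were RLE and pan-epithelial scaling, other filters, the groups compared alone, single sets of Cdx2-/- cecum, merged set 1 replicates, a replicate block, DESeq2 1.42.0 and each library left out. Identifiers were matched with GENCODE GRCm38: 37607 of 39179 had a symbol, holding 99.8% of gene reads. CPM per kilobase uses summed exon length. The Cdx2-/- libraries of both sets enter as the mean of the sets.

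The 7 genes, the lists and the tests were chosen with earlier results of these data known. Genes named are the 7, Cdx2, Muc2, Tff3, up to 3 per list by adjusted p in Cdx2-/- against WT cecum, and the 3 nearest to each of the 7 by r.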

Additional observations from a re-analysis of the deposited data

Results flagged for a closer look

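In 2 cases 1 library stood apart from the other 5 of Cdx2-/- cecum by Dixon's test. Chance alone meets it in about 1 of 20 groups of independent, normally distributed values. That rate need not hold here: the test was run on CPM, not log2 CPM, and both genes scatter widely. The libraries also pool 2 sets that differ in sex, and set 1 holds the similar pair. For Zg16 the highest library, set 2 replicate 6, had 1029 CPM, and the next had 195 CPM, a gap of 0.899 of the range, above the 95% critical value. For Clca1 the highest library, set 2 replicate 4, had 597 CPM, and the next had 182 CPM, a gap of 0.764 of the range. They were different libraries, and neither gene was high in the other's: Clca1 had 53.9 CPM in replicate 6 and Zg16 had 139 CPM in replicate 4.

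The mutant effect differed between cecum and ileum, by a test of the difference itself, for 4 genes. The difference, cecum minus ileum on the log2 scale, was 2.54 for Spdef (adjusted p = 0.00027), 2.11 for Agr2 (adjusted p = 0.00555), 1.44 for Creb3l1 (adjusted p = 0.0152) and -3.69 for Clca1 (adjusted p = 0.0313). In the ileum the targeted gene itself was not lower in the libraries labelled Cdx2-/-;Apc+/- (Cdx2 log2 fold change 0.14 ± 0.47 SE, adjusted p = 0.981), and the ileum reference carries the mutant Apc allele, so tissue, deletion and Apc cannot be told apart here.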

How the results depend on the processing

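No called value of the 7 genes changed direction under any alternative run. Leaving out 1 library kept the side of the threshold in 494 of 525 values for the single genes, lost 26 calls and gained 5. The other alternatives kept it in 526 of 553, lost 14 and gained 13. Counts of genes called moved as follows. In Cdx2-/- against WT cecum, 2 genes were called lower, but 4 with the groups compared alone, 0 with set 2 alone and 1 to 3 with 1 library left out. In Cdx2+/- against WT cecum, 2 were called higher, but 4 with the groups compared alone and 2 to 3 with 1 library left out. In compound-mutant against WT cecum, 3 were called lower, but 1 under pan-epithelial scaling and 1 to 3 with 1 library left out. In Cdx2-/- against Cdx2+/- cecum, 2 were called higher, but 1 with set 2 alone and 1 to 2 with 1 library left out, and 1 was called lower, but 4 with the groups compared alone, 2 in DESeq2 and 1 to 2 with 1 library left out. In WT stomach against WT cecum, leaving out 1 library gave 2 to 3 higher and 2 to 3 lower. In compound-mutant cecum against ileum, 2 were called higher, but 0 under pan-epithelial scaling, 0 with the groups compared alone and 0 to 2 with 1 library left out, and none was called lower, but 1 with the filter of 1 CPM, 1 with the replicate block, 1 in DESeq2 and 0 to 1 with 1 library left out. In the difference between tissues, 1 was called lower, but 0 under pan-epithelial scaling and 0 to 1 with 1 library left out. The causes were not tested.

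Pan-epithelial scaling put the median log2 fold change of all genes at 0.55 in Cdx2-/- against WT cecum, at 0.74 in compound-mutant against WT cecum, at -0.35 in Cdx2+/- against WT cecum, at 0.87 in Cdx2-/- against Cdx2+/- cecum and at 0.54 in the difference between tissues. It moved all-gene calls from 1729 to 281 in compound-mutant against Cdx2-/- cecum, from 8951 to 15371 in WT stomach against WT cecum and from 3321 to 1378 in compound-mutant cecum against ileum. In the ileum comparison, 91 genes were called, but 583 without labelled mutant replicate 2, 3 without Apc+/- replicate 1, 1 with the groups compared alone and 419 in DESeq2. Counts in gene lists under other settings were chosen after seeing the data.

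Replicate numbers gave no pairing across the series: over 63 same-numbered pairs the correlation of deviations from group means ran from -0.298 to 0.33, with a median of 0.0243 and 13 over 0.1. Most of these pairs join different genotypes, so they cannot show whether tissues of 1 genotype shared animals. WT cecum with WT stomach gave 0.173, 0.0274 and 0.33. Compound-mutant cecum with ileum gave 0.226, -0.0732 and -0.0581. Shared animals cannot be told from these values. With the replicate block, for which set 2 had no matching numbers and was left out, 9637 genes were called in Cdx2-/- against WT cecum, against 9632 without the block on the same libraries, and 82 against 113 in the ileum. Atoh1 in compound-mutant against WT cecum lost its call with the block (-2.08, adjusted p = 0.0599). Low counts limit Atoh1 in WT stomach, where 4, 3 and 0 reads carry the value.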

Other observations

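Muc2 and Tff3 in the other comparisons add to the picture of goblet cell cargo. Tff3 was lower in compound-mutant cecum, at 93.2, 141 and 82.0 CPM, against 558, 367 and 513 CPM in WT cecum (log2 fold change -2.19 ± 0.78 SE, adjusted p = 0.0239), while Muc2 was not called (304, 526 and 1278 CPM in compound-mutant cecum, against 895, 468 and 1446 CPM in WT cecum; -0.41, adjusted p = 0.688). Both were far lower in WT stomach, with Muc2 at 9.05, 2.80 and 1.88 CPM (-7.68, adjusted p = 1.13e-05) and Tff3 at 4.36, 1.34 and 1.95 CPM (-7.56, adjusted p = 5.67e-06).

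Secretory pathway genes in compound-mutant against WT cecum included Ern2 at 3.82 and Tmed3 at 1.94, and Klf4 stood at -2.89 there. In Cdx2+/- against WT cecum, Sox9 (2.03), Foxa1 (1.70) and Bcas1 (2.47) rose and Klf4 was not called (-0.91), while the gastric and airway genes Bpifb1 and Vsig1 stood at 8.43 and 6.25. Olfm4, a marker of intestinal stem cells, and Itln1, an intelectin of goblet and Paneth cells, were among the list genes with the highest log2 fold changes in Cdx2-/- against WT cecum, at 9.43 (adjusted p = 9.16e-05) and 5.51 (adjusted p = 0.00121), and were named after their values were seen. In the ileum, Tff2 was higher in the labelled mutant libraries (7.11, adjusted p = 0.0224), also named after its value was seen.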
